A study of Homo sapiens with 8 samples.

Results

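Aminoacyl tRNA synthetases are the enzymes that attach an amino acid to its transfer RNA (tRNA). The 39 genes described here are 20 cytosolic synthetases, the 3 cofactors that hold some of them together in a complex, and 16 synthetases that work in the mitochondrion. They were chosen by symbol as a family, with earlier results of these data known, and were matched to the deposited table of 20263 genes through their Ensembl identifiers. All 39 were found and all 39 passed the filter for testing, a TPM of 1 or more in 4 or more of the 8 libraries.

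The libraries came from PANC-1, an established human line derived from a pancreatic duct carcinoma. Messenger RNA was sequenced after 24 h with 10 μM eupalinolide B (EB), a plant compound, or with the vehicle dimethyl sulfoxide (DMSO), in 4 cultures per group. The labels name no genetic change in either group, and the experiment had 1 cell line, 1 dose and 1 time. The columns headed C were read as DMSO and those headed H as EB, because there is no other group.

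Each synthetase recognises 1 amino acid and its tRNAs, except EPRS1, which joins the enzymes for glutamate and proline in a single protein. Most amino acids have separate nuclear genes for the cytosolic and the mitochondrial enzyme, whereas GARS1 and KARS1 serve both compartments and mitochondrial glutaminyl-tRNA is made by another route. When tRNAs are left without their amino acid, the kinase GCN2 phosphorylates the initiation factor eIF2α, translation of the transcription factor ATF4 rises, and ATF4 binds amino acid response elements in the promoters of many amino acid genes, several cytosolic synthetases included.

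TPM (the unit of the deposited table) corrects for transcript length and has a fixed sum in every library, so a TPM is a share of a library's transcripts. No read counts were used, so the depth behind a value is unknown and no counting interval can be given. The 13 mitochondrially encoded genes took 17.0% to 39% of the TPM in DMSO libraries and 11.6% to 20.3% in EB libraries, and DMSO replicate 4, at 39%, was also the lowest DMSO library for 27 of the 39 members. Among epithelial markers, KRT8, KRT18 and KRT19 were high in every library and rose with EB (log2 fold changes of 1.20, 1.49 and 1.80, each with a limma adjusted p under 0.05), whereas mean levels of KRT7, EPCAM and CDH1 were at most 0.264 TPM in both groups. Of 7 markers of other cell types, PTPRC, CD3E, PECAM1, INS and PRSS1 were listed at 0 throughout. The summed TPM of the 7 was 64.0 to 91.8 with DMSO and 38.6 to 50.4 with EB, nearly all from the collagen gene COL1A2. The part of the mitochondrial share and of these markers in the results was not tested.

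Most cytosolic members were higher with EB, whereas 12 of the 16 mitochondrial enzymes did not pass the test in either direction. The counts of both groups depended on the scaling and on single libraries. Of the 23 cytosolic members, 15 were higher and 3 lower with EB at an adjusted p under 0.05 (limma on log2(TPM + 1) over 11725 genes, Benjamini-Hochberg adjustment). Of the 16 mitochondrial enzymes, 2 were higher and 2 lower. Among all genes tested, 15.2% were higher and 25.1% lower by the same rule. The median log2 fold change was 0.43 over the cytosolic members, −0.10 over the mitochondrial enzymes and −0.11 over all genes tested. Whether the cytosolic and the mitochondrial genes differ as lists was not tested. In bulk RNA, a shift in the mix of cells and a shift in the RNA of each cell cannot be told apart. The thresholds that the study used, a log2 fold change beyond 1.5 in size with p under 0.05 before adjustment, were applied to the limma fit described here. By them 0 of the 39 members passed in either direction, where 0.537% of all genes tested were higher and 1.54% lower, 63 and 181 genes. The paper reports other numbers of genes at its thresholds, so these counts are not the study's own. The number of members with an adjusted p under 0.05 was 17 higher and 5 lower, and 3 of the 39, GARS1, EEF1E1 and WARS1, had an absolute log2 fold change above 1. All 4 EB libraries lay above all 4 DMSO libraries in 16 members and below them in 4, against 16.6% and 20.3% of all genes tested.

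With the mitochondrially encoded genes removed, 9 mitochondrial enzymes were lower and 2 higher, so that 11 of the 16 passed, and 41.4% of all genes tested were lower in that setting. Without DMSO replicate 4, 5 mitochondrial enzymes were lower in place of 2, with EARS2, IARS2 and VARS2 added, and 9 of the 39 members were lower in place of 5, with VARS1 added too, where 37.0% of all genes tested were lower. The number of higher cytosolic members was 10 after quantile normalization, with 23.8% of all genes tested higher. It was 11 with the mitochondrially encoded genes removed, with 12.1% higher, and 15 with median-ratio scaling, with 26.8% higher. When 1 library was left out it was 11 to 15 of the 23, lowest without DMSO replicate 3, with 12% of all genes tested higher. Quantile normalization, removal of the mitochondrially encoded genes and median-ratio scaling moved the median of all genes tested from −0.11 to 0.02, −0.28 and 0.01. The cytosolic median lay 0.54 above that of all genes tested, and 0.33 to 0.72 above it over the alternatives. The mitochondrial median differed from that of all genes tested by 0.01, and by −0.06 to 0.09 over the alternatives.

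**Figure D1:**
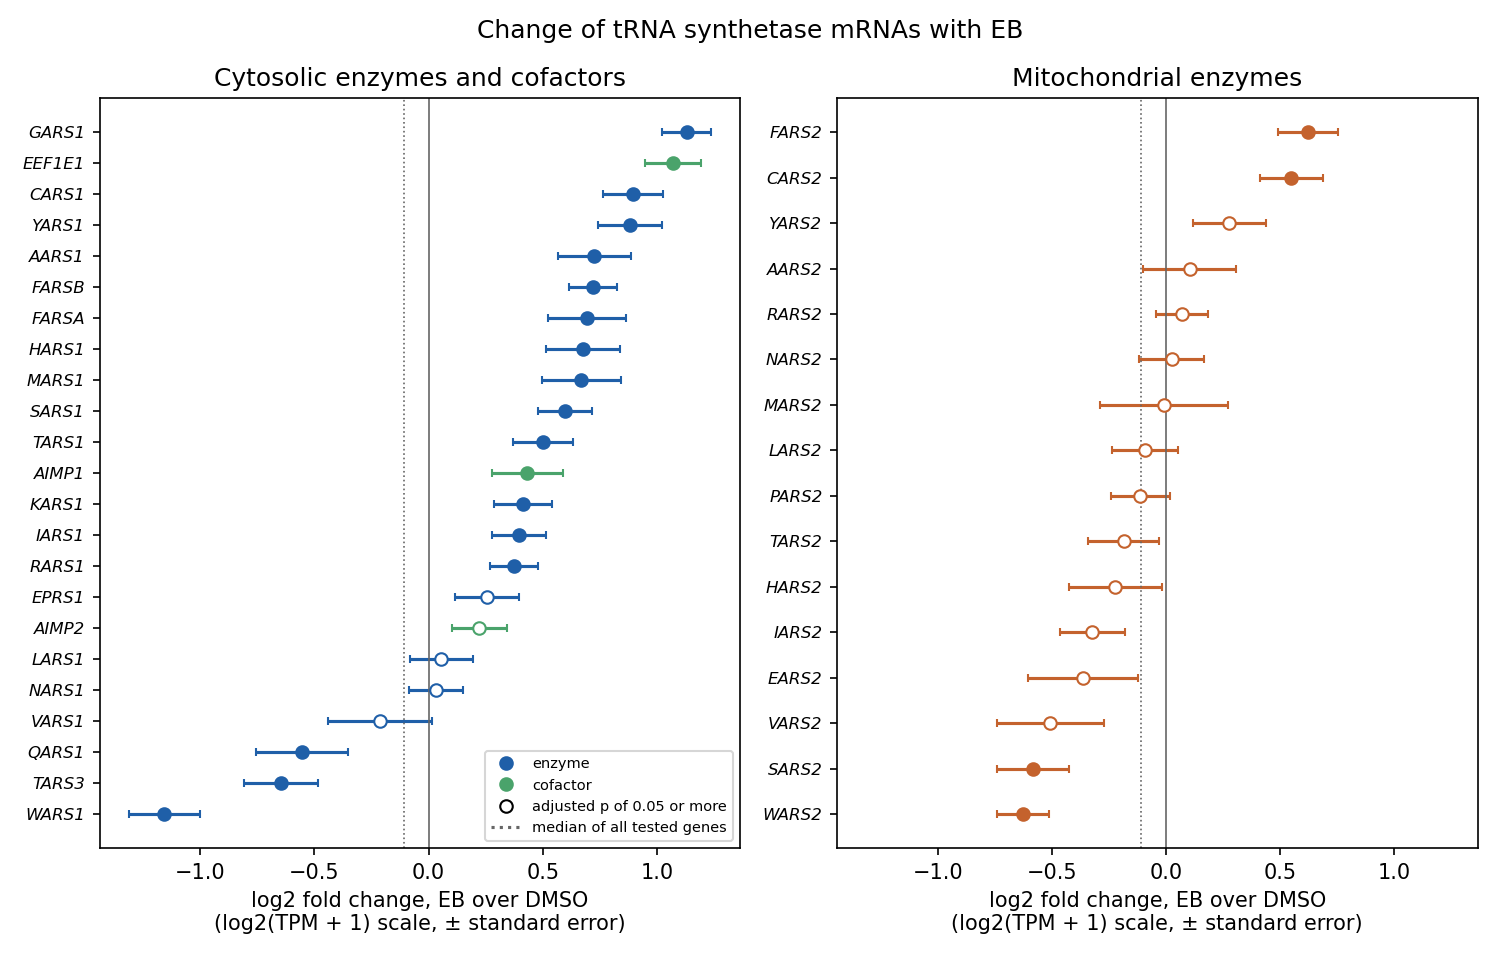
Log2 fold change of EB over DMSO on the log2(TPM + 1) scale for the 39 members, with bars for the standard error of the limma fit (n = 4 libraries per group), open circles for an adjusted p of 0.05 or more and a dotted line at the median of all genes tested. Cytosolic enzymes and cofactors lie mostly to the right, from WARS1 at −1.16 to GARS1 at 1.13, while the mitochondrial enzymes lie on both sides of the median of all genes tested, −0.11.

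GARS1, the glycyl-tRNA synthetase of both compartments, had the largest rise of the 39 on the TPM as deposited. Its level was 192, 203, 199.8 and 194 TPM in DMSO replicates 1 to 4 and 422, 433, 414 and 461 TPM in EB replicates 1 to 4. The DMSO libraries stayed within a narrow band and the lowest EB library lay well above the highest of them. The log2 fold change was 1.13 (SE 0.11, adjusted p = 0.000116) by limma with Benjamini-Hochberg adjustment. EEF1E1 rose more than GARS1 after quantile normalization, 1.14 against 0.90, and without EB replicate 2, where both were at about 1.13, and FARSB did so after correction for transcript length and GC content, 1.19 against 1.12. GARS1 became the most abundant member with EB, at a mean of 432 TPM, from the fourth place with DMSO, at 197 TPM.

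Of the other cytosolic enzymes that rose, CARS1, for cysteine, was at 30.5, 34.7, 35.5 and 26.4 TPM in DMSO replicates 1 to 4 and 63.6, 61.1, 54.9 and 59.0 TPM in EB replicates 1 to 4. YARS1, for tyrosine, was at 94.3, 92.8, 98.5 and 68.5 TPM in DMSO replicates 1 to 4 and 166, 170.0, 161 and 154 TPM in EB replicates 1 to 4. In both genes every EB library lay above every DMSO library, and the log2 fold change by limma was 0.90 (SE 0.13, adjusted p = 0.000939) for CARS1 and 0.88 (SE 0.14, adjusted p = 0.00142) for YARS1 (Benjamini-Hochberg adjustment). AARS1, the alanyl-tRNA synthetase and a much more abundant transcript, was at 250.4, 255, 249 and 170.1 TPM in DMSO replicates 1 to 4 and 399, 409, 383 and 326 TPM in EB replicates 1 to 4. DMSO replicate 4 was low and the other DMSO libraries were nearly equal, yet EB libraries were higher than each of them. The log2 fold change was 0.73 (SE 0.16, adjusted p = 0.00649) by limma with Benjamini-Hochberg adjustment.

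The phenylalanyl enzyme is built from an α subunit, FARSA, and a β subunit, FARSB. FARSB was at 50.5, 45.8, 48.2 and 48.7 TPM in DMSO replicates 1 to 4 and 77.4, 81.8, 82.5 and 78.9 TPM in EB replicates 1 to 4. FARSA was at 151, 137, 147 and 94.7 TPM in DMSO replicates 1 to 4 and 207, 221, 184 and 241 TPM in EB replicates 1 to 4. Both subunits rose, with log2 fold changes of 0.70 (SE 0.17, adjusted p = 0.0107) for FARSA and 0.72 (SE 0.11, adjusted p = 0.000957) for FARSB (limma, Benjamini-Hochberg adjustment), and neither gene's groups overlapped. The FARSA to FARSB ratio ran from 1.95 to 3.05 with DMSO and from 2.22 to 3.05 with EB, so the ratio overlapped between the groups.

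SARS1, for serine, was at 166, 164, 156 and 131 TPM in DMSO replicates 1 to 4 and 231, 241, 232 and 228 TPM in EB replicates 1 to 4, with a log2 fold change of 0.60 (SE 0.12, adjusted p = 0.0042) by limma with Benjamini-Hochberg adjustment. The 4 EB libraries were close to each other and all above the DMSO libraries. HARS1, for histidine, averaged 96.8 ± 17.3 TPM with DMSO and 154 ± 18.4 TPM with EB (SD, n = 4), with a log2 fold change of 0.68 (SE 0.16, adjusted p = 0.00963) by limma with Benjamini-Hochberg adjustment. MARS1, for methionine, averaged 58.2 ± 13.1 TPM with DMSO and 91.4 ± 7.41 TPM with EB (SD, n = 4), with a log2 fold change of 0.67 (SE 0.17, adjusted p = 0.0134) by the same limma test. The groups did not overlap in HARS1 or MARS1.

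Smaller rises were seen for TARS1, the threonyl enzyme, with a log2 fold change of 0.50 (SE 0.13, adjusted p = 0.0138), KARS1, the lysyl enzyme of both compartments, with 0.41 (SE 0.13, adjusted p = 0.0273), IARS1, for isoleucine, with 0.40 (SE 0.12, adjusted p = 0.0256), and RARS1, for arginine, with 0.37 (SE 0.11, adjusted p = 0.02) (limma, Benjamini-Hochberg adjustment). Mean levels were 104 ± 8.55 TPM with DMSO and 148 ± 17.9 TPM with EB for TARS1 (SD, n = 4). KARS1 averaged 233 ± 27.1 TPM with DMSO and 309 ± 18.6 TPM with EB (SD, n = 4). All 4 genes had every EB library above every DMSO library, even though the rises were small. The calls of KARS1, IARS1 and RARS1 nevertheless depended on single libraries. KARS1 had adjusted p between 0.0532 and 0.0712 without DMSO replicate 2 or 3 or EB replicate 1, 2 or 3. For IARS1 the range was 0.052 to 0.0705 without DMSO replicate 1 or 3 or EB replicate 1, 2 or 4. For RARS1 it was 0.0568 to 0.0637 without DMSO replicate 2 or 3 or EB replicate 3. Quantile normalization ended the calls of all 4 genes and removal of the mitochondrially encoded genes those of TARS1, IARS1 and RARS1, with adjusted p between 0.0945 and 0.227 (limma, Benjamini-Hochberg adjustment).

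WARS1, the tryptophanyl-tRNA synthetase, went the other way by the widest margin. WARS1 is also known as a gene induced by interferon γ. It was the most abundant member with DMSO. Its level was 465, 383, 349 and 371 TPM in DMSO replicates 1 to 4 and 140.1, 166, 198 and 200.2 TPM in EB replicates 1 to 4. The highest EB library was below the lowest DMSO library. The log2 fold change was −1.16 (SE 0.16, adjusted p = 0.000644) by limma with Benjamini-Hochberg adjustment, and it ranged from −1.37 to −1.03 over the alternatives. WARS1 took 16.2% ± 1.73 of the summed TPM of the 20 cytosolic enzymes with DMSO and 5.62% ± 1.0 with EB (SD, n = 4), whereas GARS1 went from 8.17% ± 0.822 to 13.8% ± 0.808 (SD, n = 4).

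The other cytosolic enzymes that fell were TARS3, another threonyl-tRNA synthetase, and QARS1, for glutamine. TARS3 was the least abundant member with either treatment, at 3.93, 6.31, 6.65 and 4.88 TPM in DMSO replicates 1 to 4 and 3.31, 3.38, 2.54 and 3.05 TPM in EB replicates 1 to 4. Every EB library lay below every DMSO library, and the log2 fold change was −0.65 (SE 0.16, adjusted p = 0.0119) by limma with Benjamini-Hochberg adjustment, with an adjusted p of 0.101 after quantile normalization. TARS1 rose while TARS3, which charges the same tRNAs, fell, and the ratio of TARS1 to TARS3 was 16.2 to 23.7 with DMSO and 38 to 58.6 with EB. QARS1 was at 153, 117, 111 and 78.3 TPM in DMSO replicates 1 to 4 and 92.4, 75.3, 71.2 and 66.6 TPM in EB replicates 1 to 4. The groups overlapped, since DMSO replicate 4 lay below EB replicate 1. The log2 fold change was −0.55 (SE 0.20, adjusted p = 0.0492) by limma with Benjamini-Hochberg adjustment. The call was lost when any library other than DMSO replicate 4 or EB replicate 1 was left out, with adjusted p between 0.0891 and 0.12, and also with a pseudocount of 0.1 (adjusted p = 0.0583) and without the filter on low TPM (adjusted p = 0.0764).

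Not past the threshold were EPRS1, for glutamate and proline, with a log2 fold change of 0.26 (adjusted p = 0.167), LARS1, for leucine, with 0.06 (adjusted p = 0.767), NARS1, for asparagine, with 0.03 (adjusted p = 0.851), and VARS1, for valine, with −0.21 (adjusted p = 0.484) (limma, Benjamini-Hochberg adjustment). LARS1 averaged 110.0 ± 5.02 TPM with DMSO and 115 ± 18.1 TPM with EB (SD, n = 4) and NARS1 99.3 ± 8.44 TPM with DMSO and 101 ± 6.15 TPM with EB (SD, n = 4). Both pairs of means lay within the spread of the libraries, but LARS1 was at 0.40 (adjusted p = 0.0114) after correction for transcript length and GC content. VARS1 was at 68.1, 64.2, 70.4 and 33.6 TPM in DMSO replicates 1 to 4 and 52.8, 54.9, 47.0 and 41.8 TPM in EB replicates 1 to 4. DMSO replicate 4 was less than every other library, and without it VARS1 had a log2 fold change of −0.46 and an adjusted p of 0.0117 by limma with Benjamini-Hochberg adjustment. EPRS1 had an adjusted p of 0.00351 or less with median-ratio scaling and after that correction.

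**Figure D2:**
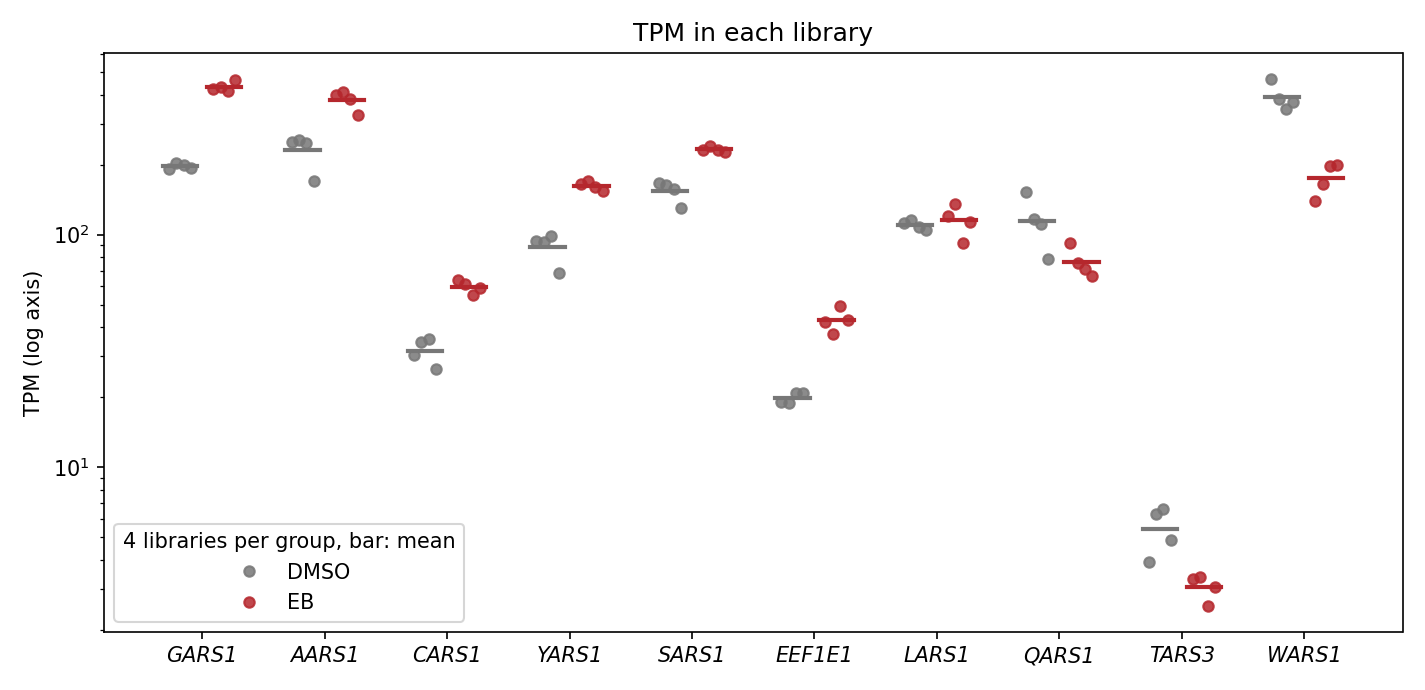
TPM of 10 members on a log axis, with the 4 DMSO libraries (grey) and the 4 EB libraries (red) as points in replicate order and the group mean as a bar. GARS1, AARS1, CARS1, YARS1, SARS1 and EEF1E1 have all EB points above all DMSO points, TARS3 and WARS1 have them below, and LARS1 and QARS1 overlap.

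Synthetases are divided into class I and class II by the fold of the catalytic domain, and the classes were set side by side. Of 9 class I cytosolic enzymes, 5 were higher and 2 lower (limma adjusted p, Benjamini-Hochberg), with a median log2 fold change of 0.37. Of 10 class II enzymes, 8 were higher and 1 lower, with a median of 0.64. By the same test 15.2% of all genes tested were higher and 25.1% lower. EPRS1 holds a domain of each class and was counted in neither. Summed TPM of the class II enzymes was 1301 ± 129 with DMSO and 2054 ± 44.2 with EB (SD, n = 4), and the groups did not overlap. For class I the sum was 1067 ± 110.2 and 1008 ± 32.7 (SD, n = 4), with overlap. Without WARS1 the class I sum was 675 ± 74.1 with DMSO and 832 ± 52.2 with EB (SD, n = 4), and every EB library was higher than every DMSO library.

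In animal cells, some synthetases are bound in the multisynthetase complex, held by the scaffold proteins AIMP1, AIMP2 and EEF1E1. EEF1E1 was at 19.1, 18.9, 20.8 and 20.8 TPM in DMSO replicates 1 to 4 and 42.3, 37.3, 49.4 and 43.2 TPM in EB replicates 1 to 4. The groups were far apart and the log2 fold change was 1.07 (SE 0.12, adjusted p = 0.000318) by limma with Benjamini-Hochberg adjustment. On the TPM as deposited this was close in size to that of GARS1. After correction for transcript length and GC content the log2 fold change was 0.75 for EEF1E1 and 1.12 for GARS1. AIMP1 was at 20.6, 17.5, 15.5 and 23.4 TPM in DMSO replicates 1 to 4 and 22.6, 25.3, 26.8 and 30.0 TPM in EB replicates 1 to 4. EB replicate 1 lay below DMSO replicate 4, so the groups overlapped, and the log2 fold change was 0.43 (SE 0.15, adjusted p = 0.0469) by limma with Benjamini-Hochberg adjustment. The call of AIMP1 was lost when any library but DMSO replicate 4 was left out, with adjusted p between 0.0512 and 0.131. It was lost too with a pseudocount of 0.1, without the filter, with median-ratio scaling, after quantile normalization and with the mitochondrially encoded genes removed, with adjusted p between 0.051 and 0.306 and log2 fold changes from 0.26 to 0.56. AIMP2 averaged 93.8 ± 8.65 TPM with DMSO and 109 ± 7.10 TPM with EB (SD, n = 4), with a log2 fold change of 0.22 (adjusted p = 0.164) by limma with Benjamini-Hochberg adjustment. Of the 10 genes of the complex among the members, 6 were higher, 1 lower and 3 not past the threshold, with a median log2 fold change of 0.38. Of its 7 enzymes, IARS1, KARS1, MARS1 and RARS1 rose, QARS1 fell, and EPRS1 and LARS1 did not pass. Of the 13 enzymes outside it, 9 rose and 2 fell, with a median of 0.68. These counts stand beside 15.2% of all genes tested higher and 25.1% lower. Whether the complex and the free enzymes differ was not tested.

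To show the letters that known response elements would have, the promoters of the members were searched, from 250 bases before to 50 bases after each start, in RefSeq sequence on GRCh38.p14. A promoter was found for 33 of the 39 members, 19 cytosolic and 14 mitochondrial. The core of an amino acid response element was searched as TGATGNAA and, in its strict form, as TGATGCAA, on both strands, and every match of the strict form is a match of the other too. TGATGNAA was in 7 of 19 cytosolic members and 1 of 14 mitochondrial enzymes, and in 3.634% of the promoters of all 15272 genes of the table with an entry. TGATGCAA was in 6 of 19 and 0 of 14, and in 0.9167% of all. Of the 14 higher cytosolic members with a promoter, 6 held TGATGNAA and 5 held TGATGCAA. The stretches that carry a match are printed 5′ to 3′ on the strand of the gene, with the match in capitals. TTGCATCA and TTTCATCA are matches on the opposite strand.
AARS1: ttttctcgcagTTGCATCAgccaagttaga
CARS1: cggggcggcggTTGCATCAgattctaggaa
GARS1: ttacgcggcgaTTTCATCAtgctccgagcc
IARS1: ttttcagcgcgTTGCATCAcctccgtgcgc
MARS1: gccggttccggTTGCATCAgcgagggattc
NARS1: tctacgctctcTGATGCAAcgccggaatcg
TARS1: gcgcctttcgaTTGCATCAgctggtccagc
YARS2: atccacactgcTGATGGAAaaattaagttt
On GRCh38.p14 these stretches of 30 bases lie at chr16:70289675-70289704 for AARS1, chr11:3057407-3057436 for CARS1, chr7:30594834-30594863 for GARS1, chr9:92293692-92293721 for IARS1, chr12:57488053-57488082 for MARS1, chr18:57621804-57621833 for NARS1, chr5:33440956-33440985 for TARS1 and chr12:32756076-32756105 for YARS2. The genes GARS1, MARS1 and TARS1 are on the plus strand and the others on the minus strand. Starts here are those of the RefSeq promoter entries, and some lie inside the span that GENCODE gives the gene, as in AARS1, GARS1 and MARS1. Every stretch but that of YARS2 itself lies inside the GENCODE span of its gene. For AARS1, whose stretch is before the RefSeq start, that span is chr16:70251983-70289707.

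Only NARS1, among the 6 cytosolic members with TGATGCAA, was not past the threshold. GARS1 has TTTCATCA, a match of the looser form only, and YARS2 is the mitochondrial enzyme with a match, at a log2 fold change of 0.28 (adjusted p = 0.191) by limma with Benjamini-Hochberg adjustment. The match lay from 197 bases before the start in YARS2 and 187 in AARS1 to 15 bases after it in NARS1, and within 33 bases of the start in the cytosolic members other than AARS1. The letters CCAAT, also on both strands, were in 10 of 19 cytosolic members, 9 of 14 mitochondrial enzymes and 42.52% of all promoters. The letters TGACGTCA were in AIMP2 only, and in 3.064% of all promoters. A match describes these letters and is not a site shown to be bound. Of 13 cytosolic synthetases on a list, compiled by hand, of known targets of ATF4, 8 were higher and 1 lower, with a median log2 fold change of 0.50. Of the 7 other cytosolic enzymes, 5 were higher and 2 lower, with a median of 0.41. For all genes tested the shares were 15.2% higher and 25.1% lower.

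The mitochondrial enzymes were far less abundant. The summed TPM of the 16 was 455 ± 69.96 with DMSO and 444 ± 32.1 with EB (SD, n = 4), with overlapping ranges of 358 to 525 and 399 to 471. For the 20 cytosolic enzymes it was 2428 ± 236 and 3134 ± 82.3 (SD, n = 4), and every EB library was higher. The ratio of the sums was 5.37 ± 0.342 with DMSO, from 5.05 to 5.86, and 7.08 ± 0.416 with EB, from 6.76 to 7.69 (SD, n = 4). Both sums are shares of the same total, so a scaling factor common to a library leaves the ratio as it is.

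**Figure D3:**
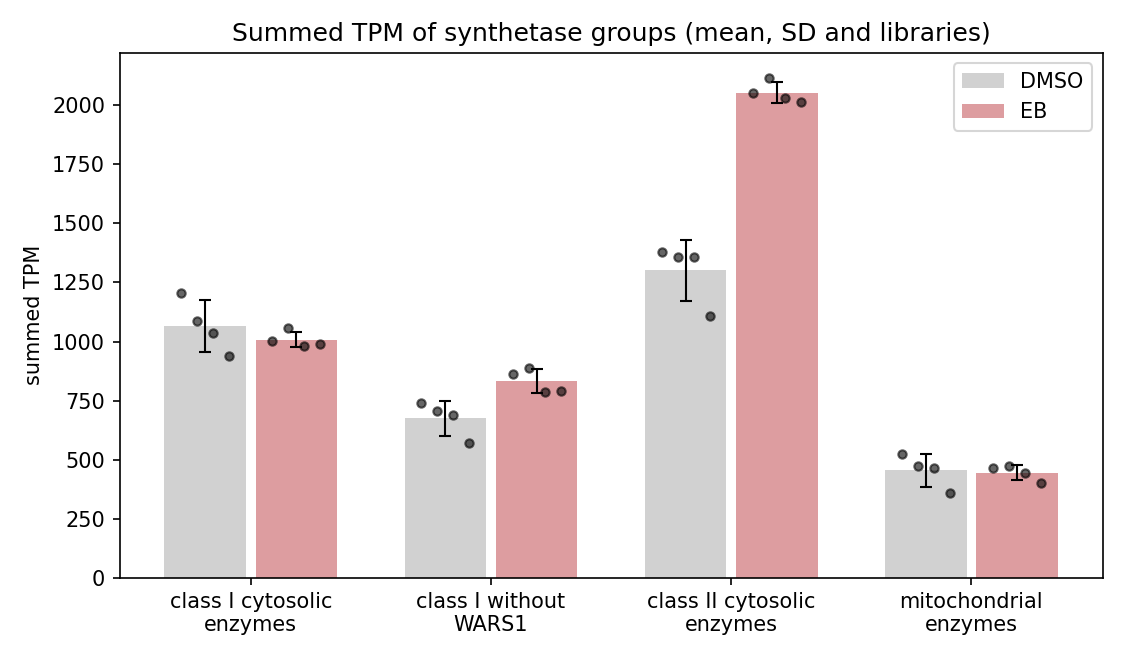
Summed TPM of class I cytosolic enzymes with and without WARS1, class II cytosolic enzymes and mitochondrial enzymes, with bars for the mean, error bars for the SD and points for the 4 libraries of each group. The class II sums are 1109 to 1379 TPM with DMSO and 2016 to 2116 TPM with EB, class I overlaps until WARS1 is left out, and the mitochondrial sums overlap.

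Among the mitochondrial enzymes, CARS2, for cysteine, and FARS2, for phenylalanine, rose. CARS2 was at 66.8, 61.7, 61.7 and 47.3 TPM in DMSO replicates 1 to 4 and 92.7, 85.4, 89.3 and 79.7 TPM in EB replicates 1 to 4. FARS2 was at 18.5, 13.7, 14.02 and 15.5 TPM in DMSO replicates 1 to 4 and 26.7, 22.9, 24.5 and 22.7 TPM in EB replicates 1 to 4. All EB libraries were higher than all DMSO libraries in both, with log2 fold changes of 0.55 (SE 0.14, adjusted p = 0.0113) for CARS2 and 0.62 (SE 0.13, adjusted p = 0.00525) for FARS2 (limma, Benjamini-Hochberg adjustment). Their cytosolic counterparts, CARS1 and FARSA with FARSB, rose as well.

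SARS2, for serine, and WARS2, for tryptophan, fell. SARS2 was at 42.6, 30.8, 30.3 and 25.4 TPM in DMSO replicates 1 to 4 and 20.6, 20.8, 19.8 and 22.4 TPM in EB replicates 1 to 4. WARS2 was at 8.002, 7.37, 8.11 and 6.58 TPM in DMSO replicates 1 to 4 and 4.30, 4.66, 4.74 and 4.32 TPM in EB replicates 1 to 4. The EB libraries were tightly grouped in both and lay below all DMSO libraries. The log2 fold changes were −0.58 (SE 0.16, adjusted p = 0.0163) for SARS2 and −0.63 (SE 0.11, adjusted p = 0.00277) for WARS2 by limma with Benjamini-Hochberg adjustment.

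The remaining 12 did not pass the threshold. The lowest log2 fold changes were −0.51 (adjusted p = 0.112) for VARS2, for valine, −0.36 (adjusted p = 0.253) for EARS2, for glutamate, and −0.32 (adjusted p = 0.0933) for IARS2, for isoleucine (limma, Benjamini-Hochberg adjustment). IARS2 was the most abundant mitochondrial enzyme with DMSO, at 101, 93.8, 90.4 and 75.2 TPM in DMSO replicates 1 to 4 and 77.8, 78.9, 70.4 and 60.3 TPM in EB replicates 1 to 4. DMSO replicate 4 lay among the EB libraries, which were otherwise lower. Without DMSO replicate 4 the adjusted p was 0.0209 for IARS2, 0.0101 for EARS2 and 0.00556 for VARS2 by limma with Benjamini-Hochberg adjustment. HARS2, for histidine, was at −0.22, TARS2, for threonine, at −0.19, PARS2, for proline, at −0.11 and LARS2, for leucine, at −0.09 on the log2 scale. AARS2 for alanine, at 0.10, RARS2 for arginine, at 0.07, NARS2 for asparagine, at 0.02 and MARS2 for methionine, at −0.01, were close to 0, and YARS2 for tyrosine was at 0.28 with adjusted p = 0.191 by limma. The 8 named without a p had limma adjusted p between 0.361 for TARS2 and 0.986 for MARS2 (Benjamini-Hochberg adjustment). Of the 12, 9 passed under some alternative. Removal of the mitochondrially encoded genes made HARS2, TARS2, PARS2, LARS2, IARS2, EARS2 and VARS2 lower. AARS2 was higher after correction for transcript length and GC content (0.44, adjusted p = 0.004) and quantile normalization (0.38, adjusted p = 0.0275), and YARS2 with median-ratio scaling (0.41, adjusted p = 0.0142). LARS2 was higher after the length and GC correction (0.24, adjusted p = 0.0183) and lower with the mitochondrially encoded genes removed (−0.27, adjusted p = 0.0327). A p above the threshold does not show that the levels were equal.

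The genes HARS1 and HARS2 lie head to head on opposite strands of chromosome 5, at chr5:140673035-140691537 and chr5:140691430-140699305 of hg38, and share 108 bases. Whether strand was used in counting is not given in the sources used here, so reads from the shared stretch may have been given to either gene.

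For 16 amino acids a cytosolic and a mitochondrial enzyme could be set against each other within each library. The cytosolic enzyme had the higher log2 fold change in 15 of 16 pairs, with a median difference of 0.49, and the lower one for tryptophan, at −0.53. EPRS1 enters 2 of the pairs, glutamate and proline, and for asparagine the difference was 0.01. After quantile normalization the count was 12 of 16, with phenylalanine, leucine and asparagine turned, and the median difference 0.22. Over the other alternatives it was 13 to 15, and 13 without EB replicate 4. The widest difference was that of serine, where the cytosolic enzyme rose and the mitochondrial one fell. The ratio of SARS1 to SARS2 was 4.88 ± 0.657 with DMSO and 11.2 ± 0.691 with EB (SD, n = 4). For histidine the ratio was 2.63 ± 0.193 and 5.0 ± 0.886 (SD, n = 4), and for isoleucine 1.07 ± 0.169 and 1.75 ± 0.233 (SD, n = 4). In each of these 3 pairs the EB ratios lay above all DMSO ratios. Cysteine was the only pair in which the mitochondrial transcript was the more abundant in every library, with a CARS1 to CARS2 ratio of 0.538 ± 0.0546 with DMSO and 0.689 ± 0.0544 with EB (SD, n = 4). The differences for phenylalanine, 0.07, and asparagine, 0.01, were the smallest, and in both the ratios overlapped. For tryptophan both enzymes fell, and the WARS1 to WARS2 ratio was 43.0 to 58.2 with DMSO and 32.6 to 46.4 with EB.

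**Figure D4:**
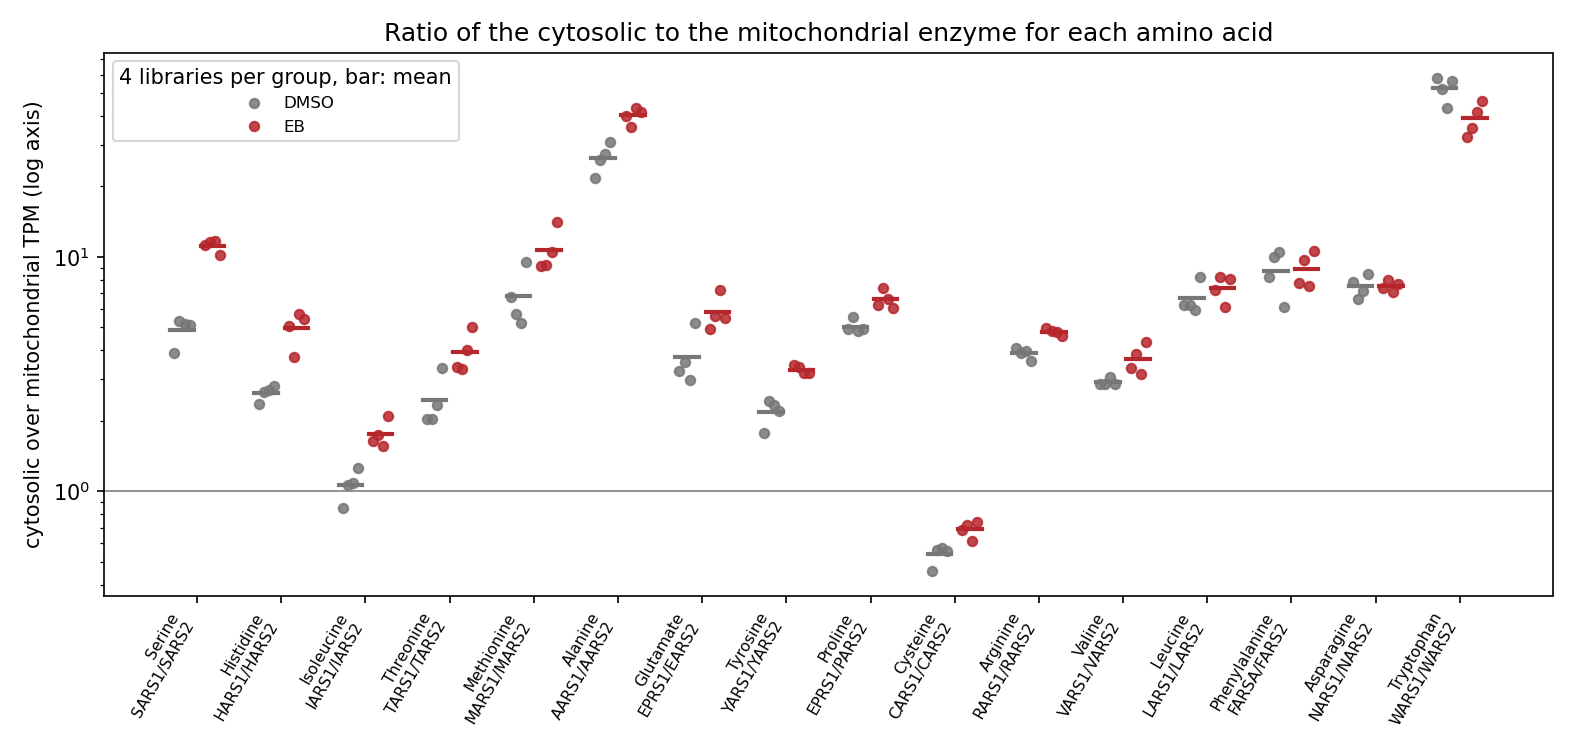
Ratio of cytosolic to mitochondrial TPM for 16 amino acids on a log axis, with 4 DMSO and 4 EB libraries as points and the group mean as a bar. The serine ratio moves from a mean of 4.88 with DMSO to 11.2 with EB, tryptophan has the highest ratio with DMSO and the only lower fold change of the cytosolic enzyme, and cysteine is the only pair whose points all lie below 1.

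Other genes that act with the synthetases were counted by list. Of 11 other charging genes, 2 were higher and 0 lower at a limma adjusted p under 0.05, namely PSTK, the kinase of selenocysteine tRNA, at a log2 fold change of 0.48, and QRSL1, a subunit of the mitochondrial amidotransferase that makes glutaminyl-tRNA, at 0.41. Of 7 cytosolic elongation factors, 2 were higher, EEF1B2, an exchange factor, at 0.55, and EEFSEC, which delivers selenocysteine, at 0.47. Of 4 mitochondrial elongation factors, GFM1, a translocase, was lower at −0.81 (adjusted p = 0.00577) and the other 3 did not pass (limma, Benjamini-Hochberg adjustment). Higher genes made up 18.2% of the charging genes and 28.6% of the cytosolic factors, against 15.2% of all genes tested. Lower genes made up 25% of the mitochondrial factors, against 25.1% of all genes tested. Whether these lists differ from all genes was not tested.

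Genes of tRNA maturation and export had 14 of 29 members higher, 0 lower and 15 not past the limma threshold, with a median log2 fold change of 0.36. Across all genes tested, 15.2% were higher and 25.1% lower. POP5 and POP7, subunits of RNase P, which trims the 5′ end of tRNAs, were at 1.14 and 0.81. LAGE3 and TPRKB, members of the KEOPS complex, which modifies tRNAs that read codons beginning with A, were at 1.0 and 0.96. The transcripts of POP5, POP7, LAGE3 and TPRKB have 1086, 850, 967 and 664 bases, where the median of the list is 2160. Across nuclear genes the log2 fold change was lower for longer transcripts (Spearman's rho −0.48). The part of transcript length in the changes of this list was not tested. The LAGE3 groups overlapped, with EB replicate 4 at 71.2 TPM and DMSO replicate 1 at 71.9 TPM. XPOT, the export receptor of tRNAs, had a log2 fold change of 0.11 (adjusted p = 0.553) by limma with Benjamini-Hochberg adjustment.

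Of 8 genes listed under the response to uncharged tRNA, 6 were higher and 1 lower, beside 15.2% and 25.1% of all genes tested. The list name is only a label, and whether uncharged tRNA lay behind these changes was not tested. ATF4 was at 203, 249, 251 and 171 TPM in DMSO replicates 1 to 4 and 461, 437, 424 and 538 TPM in EB replicates 1 to 4. Its EB libraries all lay above its DMSO libraries, with a log2 fold change of 1.10 (SE 0.16, adjusted p = 0.000844) by limma with Benjamini-Hochberg adjustment. ASNS, asparagine synthetase, an enzyme that makes the amino acid and a known target of ATF4, was at 39.8, 47.6, 38.2 and 31.1 TPM in DMSO replicates 1 to 4 and 234, 229, 252 and 216 TPM in EB replicates 1 to 4. Its log2 fold change was 2.55 (SE 0.14, adjusted p = 9.81e-06) by limma with Benjamini-Hochberg adjustment, far above that of any synthetase. DDIT3, TRIB3 and CHAC1, further targets, had log2 fold changes of 1.85, 1.64 and 1.28, each with a limma adjusted p of at most 0.0299. The groups did not overlap in DDIT3 or TRIB3. In CHAC1 they did, with EB replicate 4 at 3.03 TPM and DMSO replicate 2 at 4.04 TPM. EB replicate 1 was far above the other EB libraries in TRIB3, at 122 against 44.7 to 57.1 TPM, and in CHAC1, at 18.2 against 3.03 to 7.04 TPM. EIF2AK4, which encodes GCN2, was at 36.8, 40.3, 39.5 and 25.6 TPM in DMSO replicates 1 to 4 and 20.0, 21.9, 20.9 and 17.5 TPM in EB replicates 1 to 4. It fell, with a log2 fold change of −0.78 (SE 0.16, adjusted p = 0.0051) by limma with Benjamini-Hochberg adjustment, and every EB library was lower than every DMSO library. GCN1, its activator, had a log2 fold change of −0.44 (adjusted p = 0.13) by limma with Benjamini-Hochberg adjustment. These are transcript levels, and neither the charging of tRNAs nor the proteins were measured here.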

How the data were processed

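Messenger RNA of PANC-1 cells was sequenced in 4 DMSO and 4 EB cultures. The authors deposited TPM, normalized within each library, for 20263 genes. Their methods name CLC Genomics Workbench, HISAT2 and StringTie, and give both GrCM38 and hg38 as the genome. The depth is unknown. The p-values weigh the difference between the groups against the spread between these cultures, with variances moderated across genes. The methods speak of 4 biological replicates per group and also of triplicates. Symbols and positions came from GENCODE on hg38, and 20148 identifiers matched.

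From the TPM, log2(TPM + 1) was computed for the 11725 genes that reached a TPM of 1 in 4 or more libraries. Limma 3.58.1 in R 4.3.3 compared EB with DMSO (lmFit, eBayes without trend or block, prior degrees of freedom 3.88), with Benjamini-Hochberg adjustment over all of these genes. Medians, sums and ratios carry no test. Motifs were searched in RefSeq promoter sequences. Python 3.11.15, numpy 2.4.6, pandas 2.3.3 and matplotlib 3.10.9 were used, and the steps were tested on simulated data.

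The members and gene lists were chosen with earlier results of these data known. All 39 members are named, and from the other lists ATF4, ASNS, EIF2AK4, GCN1, XPOT and at most the 4 genes per list that passed an adjusted p of 0.05 with the widest log2 fold changes. Alternative settings were median-ratio scaling, quantile normalization, removal of mitochondrially encoded genes, correction for transcript length and GC content, a pseudocount of 0.1, a TPM filter of 5, all genes unfiltered, an intensity trend, a replicate block and each library left out.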

Additional observations from a re-analysis of the deposited data

Results flagged for a closer look

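In 5 members the DMSO value of replicate 4 stood apart from the other 3 DMSO libraries by a Dixon test at the 95% level. AARS1 was at 170.1 TPM there and at 248.6 to 255 TPM in the others. VARS1 was at 33.62 TPM against 64.16 to 70.41 TPM. LARS2 was at 12.74 TPM against 17.9 to 18.65 TPM, MARS2 at 4.319 TPM against 10.65 to 11.17 TPM, and VARS2 at 11.72 TPM against 22.38 to 23.65 TPM. These were 5 of 78 groups of 4 checked, and chance alone gives about 1 in 20. All 5 were low values in the same library, which also had the highest share of mitochondrially encoded transcripts, 39%. The part of that share in these values was not tested.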

How the results depend on the processing

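Of the 17 members higher with EB, 12 kept their call under all 17 alternatives, and of the 5 lower members 3 did (SARS2, WARS2 and WARS1). No member with a call changed sign, whereas 11 of the 17 without a call did under some setting. On the log2 scale, median-ratio scaling turned PARS2 to 0.0083, LARS2 to 0.0334 and MARS2 to 0.1157. Quantile normalization turned PARS2 to 0.1287, LARS2 to 0.0767, MARS2 to 0.2768, LARS1 to -0.0782 and NARS1 to -0.0997. With the mitochondrially encoded genes removed, 12 members and 9 mitochondrial enzymes were lower, beside 41.4% of all genes tested, the cytosolic median was 0.2571, and AARS2 was at -0.0616, RARS2 at -0.1116, LARS1 at -0.1279, NARS2 at -0.1491 and NARS1 at -0.153. After correction for transcript length and GC content (Spearman's rho of log2 fold change and transcript length across genes, -0.48), 4 mitochondrial enzymes were higher, beside 24.4% of all genes tested. In that setting EARS2 was at 0.0024, LARS2 at 0.2376, MARS2 at 0.0923, VARS1 at 0.0593 and AIMP2 at -0.0586. Leaving out 1 library gave 4 to 9 lower members and 2 to 5 lower mitochondrial enzymes, the highest counts without DMSO replicate 4 (37.0% of all genes tested), with AARS2 from -0.0885 to 0.2246, LARS1 from -0.0246 to 0.1594, NARS2 from -0.0873 to 0.0916, MARS2 from -0.2958 to 0.1497 and NARS1 from -0.0314 to 0.0667. The same fits gave 13 to 17 higher members and 11 to 15 higher cytosolic members. Both counts were lowest without DMSO replicate 3, where 12% of all genes tested were higher. The cause was not tested. With a replicate block 4 mitochondrial enzymes were lower, IARS2 and VARS2 added, beside 30.1% of all genes tested. Whether equal numbers mark paired cultures could not be decided from these values. The deviations of same-numbered libraries correlated at 0.18, 0.05, -0.09 and 0.28. Of the 8 libraries, 4 correlated best with their own number. At a TPM of at least 5, TARS3 was not tested. Depth is unknown, so what it limits could not be measured.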
